A study of Rattus norvegicus with 7 samples.

Results

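Binding sites of the retinoid X receptor RXRG were set against those of the orphan nuclear receptor NR2F2 in S16, an untreated rat Schwann cell line. Both were mapped by CUT&RUN, in which an antibody guides a nuclease to the bound protein and the DNA it frees is sequenced. The members are all peaks of the 2 deposited lists after the mitochondrial ones were dropped: 47935 RXRG peaks and 41812 NR2F2 peaks, of 283804 peaks in the 6 lists of the series. The design asks whether NR2F2 sits at Schwann cell enhancers bound by SOX10, a master regulator of the lineage; SOX10 positions and a nerve input sample are not analysed here. A peak counts as shared when at least 1 bp of it lies in a peak of the other list, and as RXRG-only or NR2F2-only otherwise. Each peak was also placed inside or outside the acetylated chromatin of S16 by whether it shares a base with a ChIP-seq peak of H3K27ac, the histone mark of active enhancers and promoters. YY1 and TEAD1 lists of S16 (CUT&RUN), and SREBP1 from the sciatic nerve of wild type rats at postnatal day 15 (ChIP-seq), served for comparison.

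RXR proteins are the shared dimer partner of many nuclear receptors, among them the retinoic acid, thyroid hormone, vitamin D and PPAR receptors. NR2F2, also known as COUP-TFII, recognises repeats of the same hexamer as these dimers do. COUP-TF proteins are known both to compete with RXR dimers for such elements and to form dimers with RXR themselves. A peak list shows where each protein was found in a population of cells. It does not show whether both sat on the same DNA molecule, nor whether either was bound directly.

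Each target had 1 library, so no error between replicates exists and no difference below carries a test. Intervals are 95% Wilson intervals for shares and binomial order-statistic intervals for medians, and both cover counting error alone, with neighbouring peaks treated as independent. Read depth is unknown, and the lists hold positions without heights, so the width of a peak is the one graded measure in them. RXRG peaks were narrow, with a median of 184 bp (quartiles 154 and 268 bp, lowest 137 bp). NR2F2 peaks had a median of 303 bp (quartiles 229 and 435 bp). The NR2F2 list has a floor at 203 bp, where 5371 peaks (12.8%) sat, against 825 RXRG peaks (1.72%) at the RXRG floor of 137 bp. The RXRG list covered 11.46 Mb and the NR2F2 list 15.3 Mb. All RXRG peaks were on placed chromosomes, whereas 97 NR2F2 peaks were on unplaced sequences and had no chance of a partner. The peaks have no gene names here, and are given by their position on build rn5, counted from 1.

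RXRG met NR2F2 at 15055 of its peaks, 31.4% (31.0 to 31.8%), and 32880 RXRG peaks had no NR2F2 peak on them. From the other side, 14538 NR2F2 peaks (34.8%) were shared and 27274 were not. Sharing followed acetylation. Of the 22558 RXRG peaks inside H3K27ac, 12987 or 57.6% (56.9 to 58.2%) met NR2F2. Of the 25377 outside, 2068 or 8.15% (7.82 to 8.49%) did, a share 7.06 times lower. Shared RXRG peaks thus lay in acetylated chromatin in 86.3% of cases and RXRG-only peaks in 29.1%. The lists were less unlike from the NR2F2 side, where 45.9% of peaks inside and 13.7% of those outside met RXRG. NR2F2-only peaks were inside H3K27ac in 54.2% of cases, and all NR2F2 peaks in 65.4%. The H3K27ac peaks cover 92.0 Mb and held 27352 NR2F2 peaks, against 14460 in all other sequence. NR2F2 peaks were thus not equally at hand in the 2 classes, and the part of this in the contrast was not tested. The contrast by acetylation was not particular to NR2F2. RXRG peaks met YY1 at 51.8% inside H3K27ac and 1.44% outside, TEAD1 at 25.1% and 0.942%, and SREBP1 at 11.3% and 0.587%. The partner lists differ in size, with 41812 NR2F2, 38704 YY1, 26404 TEAD1 and 29435 SREBP1 peaks. They cover 15.3, 19.6, 9.29 and 14.3 Mb, and the shares are not corrected for this. In bases, 3.94 Mb were common to both lists, 34.4% of the RXRG bases and 25.8% of the NR2F2 bases.

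Width went together with sharing. Shared RXRG peaks had a median width of 267 bp (263 to 270 bp) and RXRG-only peaks of 168 bp (168 to 169 bp). Inside H3K27ac the medians were 280 and 191 bp, and outside 205 and 163 bp. With the RXRG list divided into 10 width classes of equal size, the share inside H3K27ac went from 33.6% (31.0 to 36.3%) among peaks of 137 to 143 bp to 81.2% (80.0 to 82.3%) among those of 416 to 2377 bp. Outside, it went from 3.96% (3.37 to 4.65%) to 40.3% (36.5 to 44.3%). In all 10 classes the share inside was higher than that outside, so the contrast between acetylated and other chromatin was present at matched RXRG width. The widest class outside came out close to the fourth class inside, which held peaks of 158 to 169 bp at 40.3%. A wider peak covers more sequence and meets another list more readily for that reason alone. With every peak of both lists replaced by 200 bp around its midpoint, the shares were 47.3% inside and 7.22% outside.

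**Figure D1:**
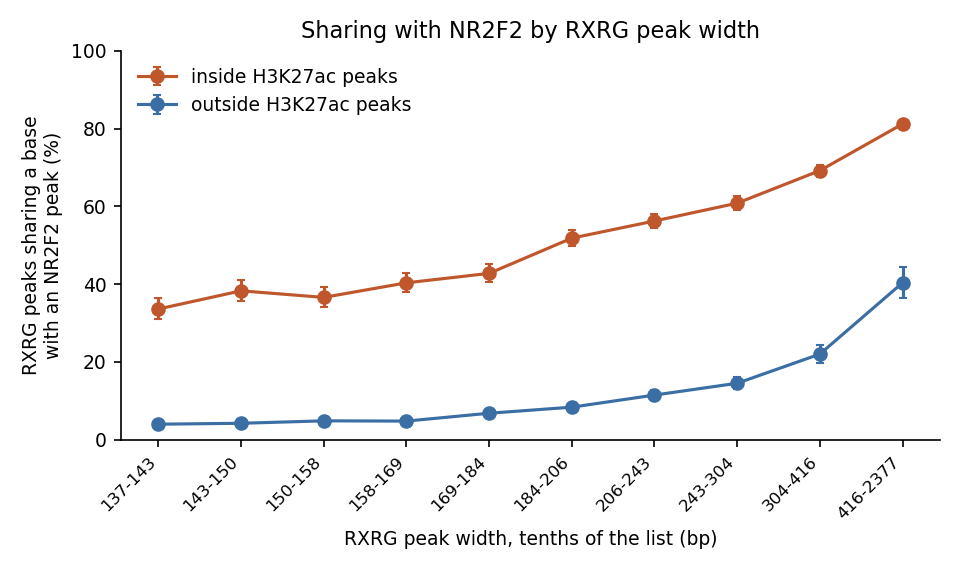
Share of RXRG peaks (y axis, percent) that share at least 1 bp with an NR2F2 peak, in 10 classes of RXRG peak width (x axis, bp), for peaks inside and outside H3K27ac. Bars are 95% Wilson intervals; the inside share goes from 33.6 to 81.2% and the outside share from 3.96 to 40.3%.

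The peaks at the floor widths show the same division. Of the 191 RXRG peaks of exactly 137 bp inside H3K27ac, 34.6% met NR2F2, against 4.89% of the 634 outside. Of NR2F2 peaks of exactly 203 bp, 22.4% of 2176 inside and 8.29% of 3195 outside met RXRG. NR2F2 peaks widened with sharing much as RXRG peaks did, from a median of 269 bp when alone to 413 bp when shared.

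RXRG peaks that shared a site with NR2F2 held more of the other S16 factors than RXRG-only peaks did. YY1, a zinc finger protein found at many promoters and enhancers, was at 58.4% of shared RXRG peaks and 9.89% of RXRG-only peaks. TEAD1, through which the coactivators YAP and TAZ reach DNA, was at 34.5% and 2.18%. SREBP1 of the nerve, a regulator of lipid synthesis genes, was at 12.3% and 2.60%. Inside H3K27ac the gap narrowed but held, with YY1 at 66.1% against 32.4%, TEAD1 at 38.6% against 6.83% and SREBP1 at 14.04% against 7.64%. From the NR2F2 side, whose peaks are wider, NR2F2-only peaks inside H3K27ac met YY1 at 42.6%, TEAD1 at 27.9% and SREBP1 at 15.4%. Shared NR2F2 peaks there were higher for each, at 66.7%, 41.2% and 18.9%. Most RXRG-only peaks outside acetylation stood alone: 22992 of 23309 (98.6%) met none of these 3 lists.

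Part of this goes with width, since shared peaks are wider, but the contrast was there in RXRG peaks of like width. Among RXRG peaks of 137 to 150 bp inside H3K27ac, TEAD1 was at 25.9% of the 879 shared peaks and 5.49% of the 1566 RXRG-only peaks, and YY1 at 45.5% and 23.1%. Among those of 304 bp or more, TEAD1 was at 49.1% and 10.6%, and YY1 at 79.5% and 50.98%. Seen the other way, 88.5% (87.6 to 89.3%) of the 5673 RXRG peaks with TEAD1 inside H3K27ac also had NR2F2, against 47.2% of those without TEAD1. For YY1 the shares were 73.4% with and 40.5% without. An RXRG peak with TEAD1 inside H3K27ac therefore seldom lacked NR2F2. Of the 5673 peaks with TEAD1, 5230 also held YY1, so the contrasts for TEAD1 and YY1 are not separate. NR2F2 was at 88.4% of the RXRG peaks with both and 38.4% of the 10429 with neither. Outside H3K27ac, 73.6% (67.7 to 78.8%) of the 239 RXRG peaks with TEAD1 had NR2F2, and 7.53% of those without. Median RXRG width was 323 bp with TEAD1 and 214 bp without it inside H3K27ac, and 191 and 164 bp outside.

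The 15055 shared RXRG peaks formed 15213 overlapping pairs with NR2F2 peaks, 13137 of them with the RXRG peak inside H3K27ac and 2076 outside. Nearly all were simple: 13588 pairs (89.3%) joined 1 RXRG peak to 1 NR2F2 peak with no further partner, 88.4% inside and 95.4% outside. Some 653 NR2F2 peaks held 2 or more RXRG peaks, with neighbouring RXRG midpoints a median of 482.5 bp apart inside NR2F2 peaks of median width 827 bp. The reverse, 1 RXRG peak over 2 or more NR2F2 peaks, occurred 157 times. The 2 peaks of a pair had the same acetylation status in all but 129 pairs: 30 had only the RXRG peak inside H3K27ac and 99 only the NR2F2 peak.

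In most pairs the NR2F2 peak was the wider one. The median widths were 269 bp for RXRG and 427 bp for NR2F2, and the median NR2F2 to RXRG ratio was 0.54 on the log2 scale (0.53 to 0.56), or 1.46-fold. NR2F2 was wider in 79.4% of pairs, and more than 2 times as wide in 29.2%. RXRG was wider in 20.4% and more than 2 times as wide in 3.63%. Inside H3K27ac the median fold was 1.47 and outside 1.39. NR2F2 peaks were also the wider ones over the whole lists (303 against 184 bp), and the floors of 203 and 137 bp differ in the same direction.

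The widths of partners moved together only in part. Spearman's rho over the 15213 pairs was 0.28, with 0.26 inside and 0.16 outside. It is a description without a p, because the pairs share their 2 libraries and cannot be taken as replicates. For comparison, the widths of overlapping pairs gave 0.14 for RXRG with YY1 (12112 pairs) and 0.11 for RXRG with TEAD1 (5953 pairs). NR2F2 gave 0.13 with YY1 (15516 pairs) and 0.16 with TEAD1 (10159 pairs). From the narrowest to the widest of 4 classes of paired RXRG width, the median NR2F2 width went from 349.5 to 374, 435 and 563 bp. The median fold therefore fell from 2.19 among RXRG peaks of up to 187 bp to 1.04 among those of 416 bp or more. Outside H3K27ac the order turned over: the median fold went from 1.75 in the narrowest class to 0.722 in the widest, where RXRG peaks were usually the wider partner (252 pairs).

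**Figure D2:**
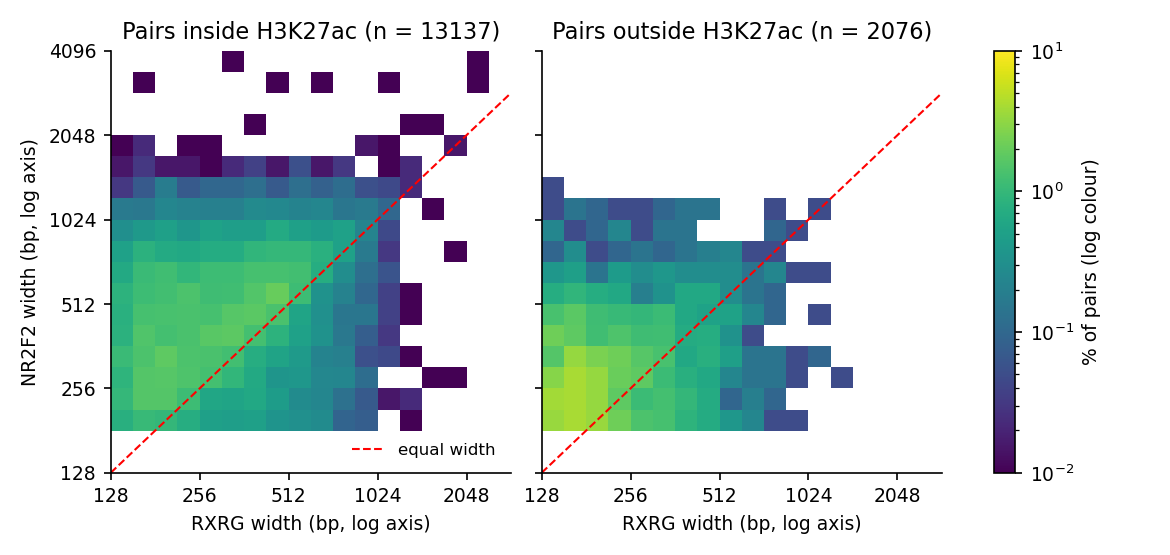
Widths of the RXRG peak (x axis, bp, log scale) and the NR2F2 peak (y axis, bp, log scale) in overlapping pairs inside (13137) and outside H3K27ac (2076); colour is the percentage of pairs in each cell, on a log scale, and the dashed line marks equal width. NR2F2 was wider, above the line, in 79.9% of pairs inside and 76.1% outside.

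The widest pairs show how large these sites can be. The widest shared RXRG peak, at chr14:46856435-46858811 (2377 bp), overlapped an NR2F2 peak of 3294 bp by 2295 bp. The next, at chr1:13503253-13505585 (2333 bp), lay wholly inside the 3470 bp NR2F2 peak, with starts 2 bp apart and ends over 1 kb apart. The third, at chr4:6890378-6892399 (2022 bp), matched an NR2F2 peak of 2017 bp with midpoints 11.5 bp apart. All 3 were inside H3K27ac and met YY1 and TEAD1. Outside H3K27ac the widest shared RXRG peak, at chr4:196628748-196629968 (1221 bp), enclosed an NR2F2 peak of only 268 bp, 25989 bp from the nearest H3K27ac peak. At chr15:48406008-48407150 (1143 bp), the NR2F2 partner was almost as wide (1073 bp, midpoints 64 bp apart). None of the 3 widest shared peaks outside H3K27ac met YY1, TEAD1 or SREBP1.

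Midpoints of paired peaks lay close together. The median distance between the RXRG and NR2F2 midpoints was 81.5 bp (80 to 83.5 bp), with quartiles of 32.5 and 165.5 bp. It was within 50 bp in 35.4% of pairs, within 100 bp in 57.3% and within 300 bp in 92.9%. Inside H3K27ac the median was 82.5 bp and outside 75.75 bp. The RXRG midpoint was inside the NR2F2 peak in 86.9% of pairs, and the NR2F2 midpoint inside the RXRG peak in 69.6%. Where the RXRG midpoint was inside the NR2F2 peak, its median distance from the NR2F2 centre was 0.309 of the way to the edge. Even spread over the NR2F2 peak would put that value midway, so RXRG midpoints were gathered towards the NR2F2 centre. Outside H3K27ac they were less so, at 0.380 against 0.300 inside. The distance in bp, smaller outside over all pairs, was not smaller at every RXRG width: among RXRG peaks of 416 bp or more its median was 113 bp outside and 93 bp inside.

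A pair near the medians of its class illustrates both cases. An RXRG peak at chrX:90900540-90900830 (291 bp) met an NR2F2 peak at chrX:90900373-90900823 (451 bp) inside a 580 bp H3K27ac peak, with 284 bp in common and midpoints 87 bp apart. An RXRG peak at chr2:131688520-131688726 (207 bp) met an NR2F2 peak at chr2:131688404-131688682 (279 bp), 129087 bp from any H3K27ac peak, with 163 bp in common and midpoints 80 bp apart. In both, the RXRG peak ran past one end of the NR2F2 peak.

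RXRG with YY1 gave a larger median distance, 103.5 bp, and RXRG with TEAD1 95 bp. NR2F2 with YY1 gave 77.5 bp and NR2F2 with TEAD1 81 bp. These values move with the widths of the lists, as YY1 peaks in pairs with RXRG had a median of 630 bp. As a share of the way from centre to edge, RXRG midpoints were at 0.309 in NR2F2 peaks, 0.326 in YY1 peaks and 0.370 in TEAD1 peaks. NR2F2 midpoints were at 0.253 in YY1 peaks and 0.326 in TEAD1 peaks. The close centring of RXRG on NR2F2 was thus of the same order as that of the other pairs of lists.

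In 7162 pairs (47.1%, 46.3 to 47.9%) the RXRG peak lay wholly inside the NR2F2 peak, in 1001 (6.58%) the NR2F2 peak lay wholly inside the RXRG peak, and in 7050 (46.3%) each ran past the other at one end. No pair had identical ends. Inside H3K27ac 49.2% of pairs (48.3 to 50.04%) had RXRG nested in NR2F2 and 44.3% were staggered. Outside, nesting fell to 33.7% (31.7 to 35.8%) and staggering rose to 59.4%. Part of this goes with relative width, and it was compared within classes of the width ratio. Where NR2F2 was up to 2 times as wide, RXRG was nested in 53.2% of pairs inside and 37.5% outside. Where it was more than 2 times as wide, RXRG was nested in 74.9% inside and 61.1% outside. Pairs outside H3K27ac were therefore more often staggered at like width ratio too. These classes match the ratio but not the widths in bp. Median paired widths were 206 bp (RXRG) and 296 bp (NR2F2) outside, against 283 and 454 bp inside. Median midpoint distances were nearer to each other, at 75.75 and 82.5 bp. The part of width in bp in the difference was not tested. The share of pairs in which neither midpoint lay in the partner's peak was 8.43% inside and 14.8% outside.

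**Figure D3:**
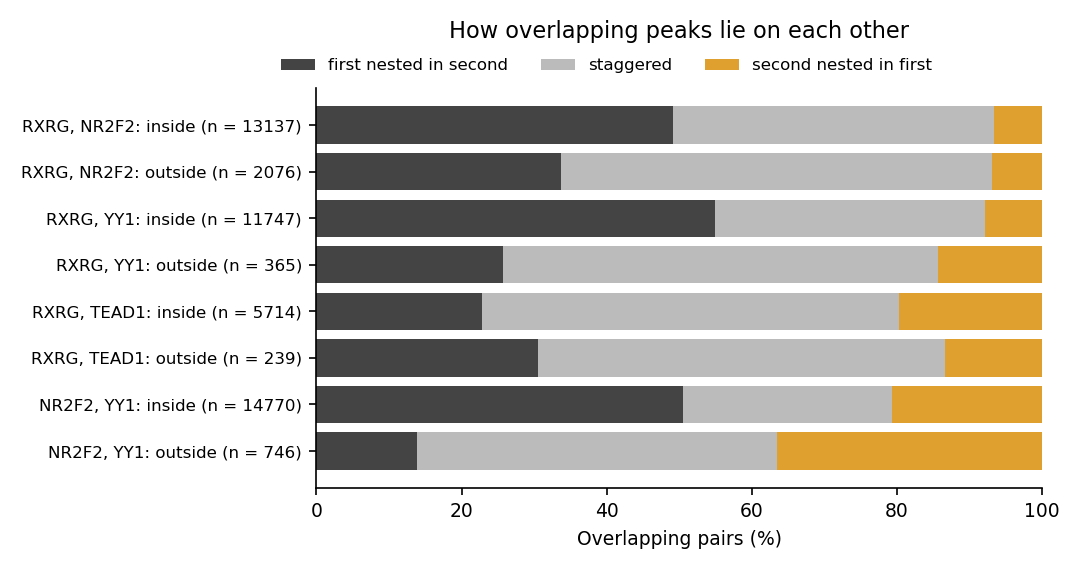
Arrangement of overlapping peak pairs (x axis, percent of pairs) for RXRG with NR2F2, YY1 and TEAD1 and for NR2F2 with YY1, inside and outside H3K27ac; each bar is divided into pairs with the first peak nested in the second, staggered pairs and pairs with the second nested in the first. For RXRG with NR2F2 the nested share is 49.2% inside and 33.7% outside.

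The other pairs of lists followed their widths. RXRG was nested in 54.1% of its pairs with the wider YY1 peaks, and in 23.1% of those with TEAD1, whose peaks were about as wide as their RXRG partners (median fold 1.08). NR2F2 was nested in YY1 in 48.8% of pairs. The fall in nesting outside H3K27ac was also seen for RXRG with YY1, from 55.0 to 25.8% (365 pairs outside), and for NR2F2 with YY1, from 50.5 to 13.8%. YY1 peaks in those pairs were much narrower outside (median 241 against 644 bp with RXRG). For RXRG with TEAD1 the nested share was 22.8% inside and 30.5% outside (239 pairs). NR2F2 was nested in TEAD1 in 16.5% of pairs inside and 14.9% outside (727 pairs).

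Unshared peaks were for the most part far from the other list. RXRG-only peaks had their nearest NR2F2 peak at a median gap of 18198 bp (17883 to 18541 bp), 13337 bp inside H3K27ac and 20419 bp outside. Once both lists were reduced to peaks above their median width, the median gap over all RXRG-only peaks was 36225 bp. That step changes both the number and the kind of peaks, and number alone was not tested. In the full lists, only 2.96% of RXRG-only peaks were within 200 bp and 7.89% within 1 kb. Near misses were more frequent in acetylated chromatin: 17.2% of RXRG-only peaks inside H3K27ac had NR2F2 within 1 kb, against 4.07% of those outside. NR2F2-only peaks had the nearest RXRG peak at a median of 14189 bp, and 9.58% within 1 kb. Within the same H3K27ac peak, 1739 of the 9571 RXRG-only peaks inside (18.2%) had an NR2F2 peak elsewhere.

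The density of NR2F2 midpoints close to RXRG midpoints was set against that at 7 to 15 kb. Inside H3K27ac, 329.55 NR2F2 midpoints per 1000 RXRG peaks lay within 100 bp, 143.6 at 100 to 200 bp and 72.6 at 200 to 300 bp. The mean per 100 bp at 7 to 15 kb was 6.18, so the centre was 53.3 times denser. YY1 gave 38.7 times and TEAD1 28.1 times around the same peaks. RXRG peaks of this class touch H3K27ac by definition, whereas DNA at 7 to 15 kb need not. The part of that choice in these ratios was not tested, so the ratios inside and outside are not like measures. Outside H3K27ac, NR2F2 gave 49.7 midpoints per 1000 RXRG peaks within 100 bp against 4.29 at 7 to 15 kb, or 11.6 times, while YY1 reached 2.05 times and TEAD1 2.48 times. At 500 to 1000 bp, NR2F2 was back at 1.03 times its distant level outside H3K27ac. YY1 and TEAD1 lay below theirs there, at 0.421 and 0.410 times. These RXRG peaks are by definition ones that miss H3K27ac, and the part of that choice in the low values and in the 3 ratios was not tested. The ratios depend on the level taken as distant. The lowest values per 100 bp within 2 kb were 3.07 for NR2F2, 1.38 for YY1 and 0.670 for TEAD1. Those within 100 bp were 49.7, 9.26 and 6.66. By share of peaks, RXRG outside H3K27ac met NR2F2 at 8.15%, YY1 at 1.44%, TEAD1 at 0.942% and SREBP1 at 0.587%. These shares are not corrected for the unlike sizes of the lists.

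**Figure D4:**
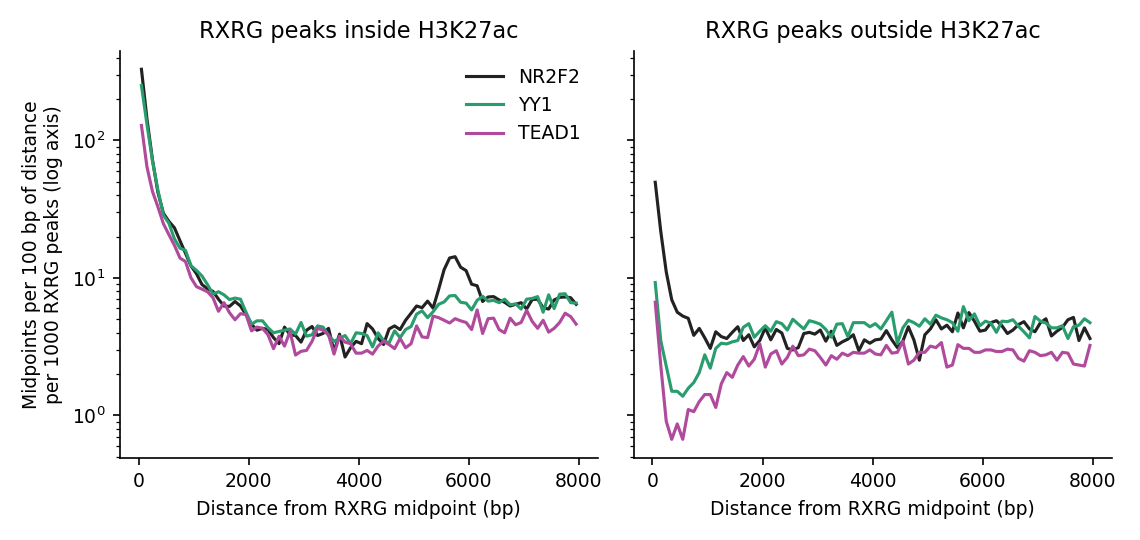
Midpoints of NR2F2, YY1 and TEAD1 peaks per 100 bp of distance and per 1000 RXRG peaks (y axis, log scale) against the distance from the RXRG midpoint up to 8 kb (x axis, bp, both directions summed), for RXRG peaks inside and outside H3K27ac. Within 100 bp NR2F2 reaches 329.55 inside and 49.7 outside, and inside H3K27ac the NR2F2 line has a bump between 5 and 6 kb; the closing observations give the values over all RXRG peaks, inside and outside together.

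RXRG peaks outside H3K27ac met NR2F2 more often within 500 bp of acetylated chromatin than farther away. Beyond 500 bp the share stayed between 7.12 and 8.76% in every class of distance. The share was 12.05% (10.5 to 13.7%) within 500 bp of an H3K27ac peak and 7.48% at 500 to 1000 bp. It was 7.12% at 1 to 5 kb, 8.06% at 5 to 20 kb, 8.76% at 20 to 100 kb and 8.03% (6.60 to 9.75%) farther away. Apart from the nearest class, the shares showed no steady decline, and the median RXRG width was between 162 and 167 bp in every class. Shared RXRG peaks outside H3K27ac lay a median of 7270 bp from it and RXRG-only peaks 6846 bp.

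RXRG peaks in large clusters were shared with NR2F2 more often than scattered ones. Chains of RXRG peaks were formed across gaps of up to 10 kb. The 26879 peaks that stood alone were shared in 30.2% of cases, those in chains of 2 in 32.0%, of 3 or 4 in 30.002% and of 5 to 7 in 37.1%. Inside H3K27ac the share dipped from 59.4% for lone peaks to 50.1% in chains of 3 or 4, whereas outside it went up with each class, from 7.10 to 8.16, 10.6 and 12.6%. The 60 chains of 8 or more peaks held 668 RXRG peaks, of which 70.7% (67.1 to 74.0%) were shared. They were also more acetylated, with 74.6% of peaks inside H3K27ac against 44.1% of lone peaks, but the difference was seen within each class: 83.5% against 59.4% inside H3K27ac and 32.9% against 7.10% outside (170 peaks in such chains). In these chains 56.1% of RXRG peaks met YY1 and 47.8% TEAD1, against 22.7% and 11.1% of lone peaks, and median RXRG width was 229 against 181 bp.

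The largest chain, at chr14:46757252-46834930 (77.7 kb), held 29 RXRG peaks, 26 of them shared and 27 inside H3K27ac. The chain at chr1:56895992-56978761 (82.8 kb), had all 26 RXRG peaks shared. A further one on that chromosome, at chr1:57186488-57236869, had 17 of 18 shared, and one at chr19:40151654-40237428, had 19 of 21. The chain at chr18:29649609-29722612 (73.0 kb), differed: of its 18 RXRG peaks 4 were shared, and none lay in H3K27ac or met YY1 or TEAD1. Chains were formed and these were named after their values were seen.

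**Figure D5:**
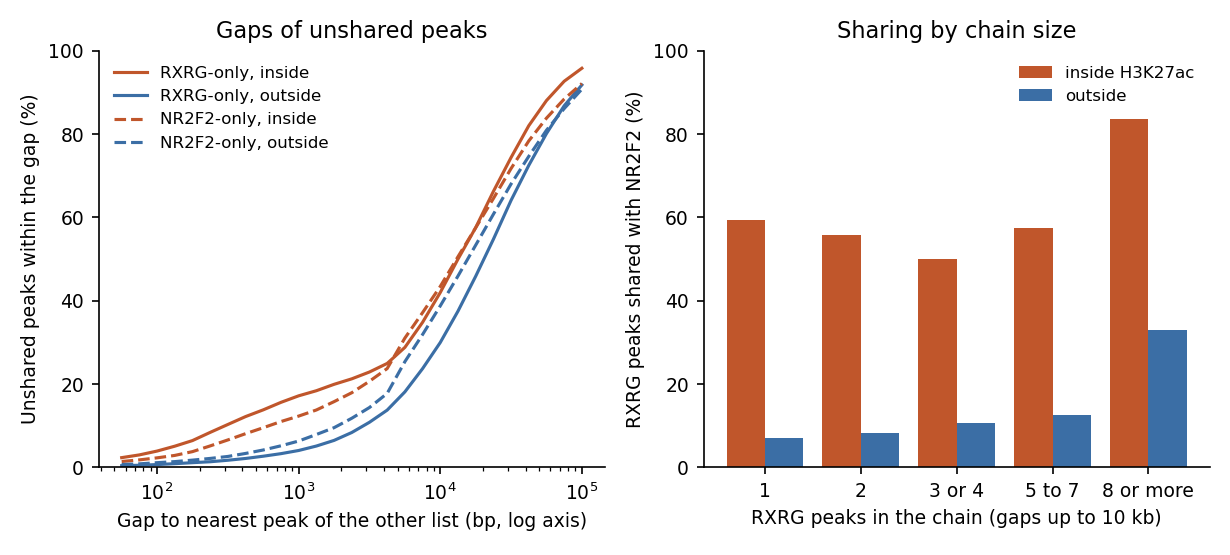
Left, share of RXRG-only and NR2F2-only peaks (y axis, percent) whose nearest peak of the other list is within a given gap (x axis, bp, log scale), inside and outside H3K27ac. Right, share of RXRG peaks shared with NR2F2 (y axis, percent) by the number of RXRG peaks in a chain with gaps up to 10 kb (x axis); chains of 8 or more reach 83.5% inside and 32.9% outside.

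Seen from the acetylated regions, 11865 of the 99514 H3K27ac peaks (11.9%) held an overlapping RXRG and NR2F2 pair. Another 7495 (7.53%) held RXRG alone and 12529 (12.6%) NR2F2 alone. Only 1021 (1.03%) held both with no overlap, so where both lists were present in a region they mostly met. These last regions were the widest, with a median of 1555 bp, against 920 bp with a pair, 903 bp with RXRG alone, 738 bp with NR2F2 alone and 658 bp with neither. Paired peaks inside H3K27ac had median widths of 283 bp (RXRG) and 454 bp (NR2F2). The overlap that the widths of peaks and regions alone would give was not tested. A pair was the only one in its region in 10754 cases, and 4 H3K27ac peaks held 5 pairs. One of these, at chr6:39269402-39274763 (5362 bp), held 6 RXRG and 6 NR2F2 peaks.

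Shared RXRG peaks sat nearer the middle of acetylated regions than RXRG-only peaks. Among those with their midpoint in an H3K27ac peak, the median distance from its centre was 0.303 of the way to the edge for 12721 shared peaks, 0.464 for 8828 RXRG-only peaks and 0.369 for 13922 NR2F2-only peaks. RXRG-only peaks thus came close to the even spread that would put the median midway. Sharing was not simply higher in wide regions. It was 44.04% in H3K27ac peaks of 231 to 367 bp, 63.2% at 367 to 737 bp, 63.4% at 737 to 1233 bp and 52.6% (51.5 to 53.7%) in those of 1233 bp or more.

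Wide RXRG peaks without NR2F2 did exist in acetylated chromatin. The widest, at chr14:2390075-2391244 (1170 bp), lay in a 1574 bp H3K27ac peak with its nearest NR2F2 peak 66093 bp away. The next, at chr6:36970400-36971523 (1124 bp), was 64475 bp from NR2F2. Neither these nor the third, at chr4:7241856-7242927, met YY1, TEAD1 or SREBP1. Outside H3K27ac, the widest RXRG-only peak, at chr9:61496606-61497748 (1143 bp), was 227 bp short of an NR2F2 peak. Among NR2F2-only peaks, the widest was at chr9:88395260-88396781 (1522 bp, inside H3K27ac), 17648 bp from RXRG. The next, at chr1:258649495-258650903 (1409 bp), met YY1, TEAD1 and SREBP1 and missed RXRG by 174 bp. The widest NR2F2-only peak outside H3K27ac, at chr6:133697200-133698628 (1429 bp), was 12583 bp from RXRG.

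The contrast by acetylation was found on each of the 21 chromosomes with RXRG peaks. The share of RXRG peaks with NR2F2 ranged from 43.2 to 68.7% inside H3K27ac and from 4.21 to 11.7% outside. Over all RXRG peaks it was lowest on chromosome 12 (20.3% of 1520 peaks) and highest on chromosome X (43.03% of 1248). The share of NR2F2 peaks with RXRG varied far less, from 32.4% on chromosome X to 38.5% on chromosome 17. The number of RXRG peaks per NR2F2 peak ran from 0.793 on chromosome X to 1.77 on chromosome 12, in the opposite order to the share at both ends. With mostly 1 to 1 pairs and an NR2F2 share that varied little, this order follows from the peak counts and is no separate result. The median distance between paired midpoints ran from 68 bp on chromosome 19 to 94.5 bp on chromosome 3. The median log2 width ratio ran from 0.35 on chromosome 12 to 0.62 on chromosome 5, and the share of pairs with RXRG nested in NR2F2 from 34.6% on chromosome 10 to 58.4% on chromosome X. Nesting of RXRG in NR2F2 was lower outside H3K27ac than inside on 19 of the 21 chromosomes.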

How the data were processed

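The authors deposited 1 list of peak positions (chromosome, start and end) per target; the SREBP1 list alone has a score column, not used here. Per the submitters' processing notes, bcl2fastq 2.20.0.422, Bowtie2, MACS2, bedtools and deepTools and build rn5 were used, without roles or settings. The sources used here give no thresholds or controls, and peak numbers and widths depend on them and on depth, which is unknown. No genome or annotation of rn5 was used, so no sequence or gene is given. Mitochondrial peaks were dropped, overlaps and gaps were computed in Python 3.11.15 with NumPy 2.4.6, pandas 2.3.3 and SciPy 1.17.1, and the code was tested on simulated peaks. Distances are between midpoints and gaps between edges. A pair takes the acetylation class of its RXRG peak. Named peaks are the widest of each class, the pair nearest the medians of its class and the H3K27ac peaks with the most pairs. Members, lists and this rule were chosen with earlier results of these data known. The densities beyond 5 kb, the chains, the classes by chromosome, by distance from H3K27ac and by width ratio, and some of the alternatives were added after the lists were seen.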

Additional observations from a re-analysis of the deposited data

Results flagged for a closer look

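Both lists held mitochondrial peaks, which were left out of every comparison above: 16 for RXRG and 13 for NR2F2. They stand here because they lie outside the comparisons and no control list is analysed here to set them against. Of the RXRG ones 15 overlapped an NR2F2 peak, and of the NR2F2 ones 12 overlapped an RXRG peak. They covered 4688 bp for RXRG and 6405 bp for NR2F2, and the overlap that such cover alone would give was not tested. Mitochondrial peaks were not particular to these targets: YY1 and TEAD1 had 9 each and H3K27ac 2, while SREBP1 had none.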

How the results depend on the processing

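The 8 results were recomputed under 61 alternatives. Of these values, 25 stayed within the counting interval of the original and 36 moved beyond it. Only the width difference and the log2 width ratio could change sign, and neither did. The shares, the distance and the gap cannot be negative, so they had no sign to change. Limiting the lists to placed chromosomes and joining peaks within 100 bp could change nothing. All RXRG peaks are on placed chromosomes, and no 2 peaks of either list lie within 100 bp. The values under these settings are among the 25 that stayed, and they carry no information on stability. No paired analysis was possible because each target has 1 library. Requiring an overlap of 50% of the shorter peak gave shares of 28.7% over all RXRG peaks, 53.1% inside and 6.96% outside H3K27ac, a log2 width ratio of 0.56, a distance of 71.5 bp and nesting of 51.9%. With the RXRG midpoint inside the NR2F2 peak they were 27.6, 51.1 and 6.64%, 0.61, 67 bp and 54.2%, and the width difference between shared and RXRG-only peaks was 93 bp. Without the widest 1% of each list the shares were 29.8% over all RXRG peaks and 54.8% inside, the width difference 90 bp and the distance 77.5 bp. With peaks wider than their list's median the shares were 36.95, 52.9 and 7.72%, the width difference 104 bp, the ratio 0.57, the distance 86.5 bp and nesting 51.9%. The median gap of RXRG-only peaks was then 36225 bp, from lists with fewer and wider peaks. The RXRG midpoint as the rule for acetylation gave 59.03% inside and 8.85% outside. Pairs with no further partner gave a ratio of 0.49 and a distance of 71 bp. The settings for the gap and the following ones were added after the lists were seen. Joining within 500 bp gave 30.9% over all RXRG peaks, a width difference of 133 bp and a ratio of 0.48. Windows of 200 bp around each midpoint gave 26.04, 47.3 and 7.22%, with a difference in original width of 92 bp. The share inside stayed 6.54 to 7.70 times that outside under every setting run.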

Other observations

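Peaks were scarce at 2 to 5 kb from one another, within each of the 6 lists and between RXRG and NR2F2, and their density stepped up at about 5 kb. Around RXRG peaks, NR2F2 midpoints averaged 18.9 per 500 bp and 1000 RXRG peaks at 2 to 5 kb, 42.6 at 5.5 to 6 kb and 25.9 at 7 to 15 kb. Around NR2F2 peaks, other NR2F2 midpoints gave 20.7, 71.03 and 30.5. For RXRG around RXRG the values were 20.01, 35.9 and 32.6. As a ratio to the level at 7 to 15 kb, the level at 2 to 5 kb was 0.731 for NR2F2 around RXRG, 0.614 within RXRG, 0.678 within NR2F2, 0.682 within YY1, 0.711 within TEAD1, 0.693 within H3K27ac and 0.248 within SREBP1 from nerve. The excess at 5.5 to 6 kb was 2.33 times within NR2F2 and 1.64 times for NR2F2 around RXRG, against 1.10 within RXRG and 0.999 within SREBP1. The cause was not tested. Gaps and densities between 2 and 6 kb in the report carry this pattern, which is why the level at 7 to 15 kb served as the distant one.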
